A study of Mus musculus with 6 samples.

Results

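The 10 genes described here belong to the feedback and output arm of receptor tyrosine kinase to ERK signalling and were measured in sorted mouse Müllerian duct mesenchyme. They were chosen by symbol: Spry1, Spry2, Spry4, Spred1, Spred2, Dusp4, Dusp6, Etv1, Etv4 and Etv5. All 10 were found among the 37991 gene identifiers of the count tables, and all 10 were among the 15227 genes that passed the filter on low counts. The duct is the precursor of the oviduct, uterus and upper vagina, and in male embryos it regresses under anti-Müllerian hormone (AMH), which acts through its receptor on the mesenchyme. The question of the comparison was which genes differ between regressing male and persisting female duct mesenchyme.

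Both groups, 3 male and 3 female libraries, came from embryos at embryonic day 14.5 with the genotype Amhr2Cre/+, R26R YFP/+ on a mixed C57BL/6J x 129/SvEv background. Cre was thus expressed from the Amhr2 locus in every embryo, which leaves 1 Cre-carrying Amhr2 allele in both sexes, and the YFP reporter marks cells that have expressed Cre and their descendants. Somatic cells of the gonads also use this locus. Each library was made from YFP-sorted cells pooled from 2 to 7 embryos, and the labels call the replicates biological.

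When a growth factor such as a fibroblast growth factor (FGF) binds its receptor kinase, RAS is loaded with GTP and the kinases RAF, MEK and ERK are activated in turn. ERK then drives transcription of its own inhibitors: Sprouty and Spred proteins, which act at the membrane between receptor and RAF, and dual-specificity phosphatases, which remove the activating phosphates from ERK. The ETS factors ETV1, ETV4 and ETV5 are transcribed downstream of FGF receptors in many embryonic tissues. RNA levels of some genes of the set are commonly used as readouts of the pathway. ERK activity itself was not measured here.

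Of the 10 feedback genes, 4 (Dusp6, Etv4, Spry4 and Dusp4) stood lower in every male library than in any female library. Over all genes tested, 7.27% had every male library below every female library. Dusp6 had the largest difference in means, 4.04 times higher in female, followed by Etv4 at 2.36 times, Spry4 at 2.00 times and Dusp4 at 1.97 times. Spry1, Spry2 and Etv1 had nearly equal means in the 2 sexes. None of the 10 genes passed edgeR's quasi-likelihood test at an adjusted p of 0.05, a threshold that 0.387% of the genes tested passed as lower in male and 0.841% as higher. At an unadjusted p under 0.05, 4 of the 10 were lower in male and none higher, where 4.51% of all genes tested were lower and 4.68% higher. DESeq2, by which 2.15% of genes were lower and 2.92% higher in male, called Dusp6 alone among the 10, and limma-voom called none. The median log2 fold change, male over female, was −0.68 over the 10 genes and −0.01 over all genes tested.

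**Figure D1:**
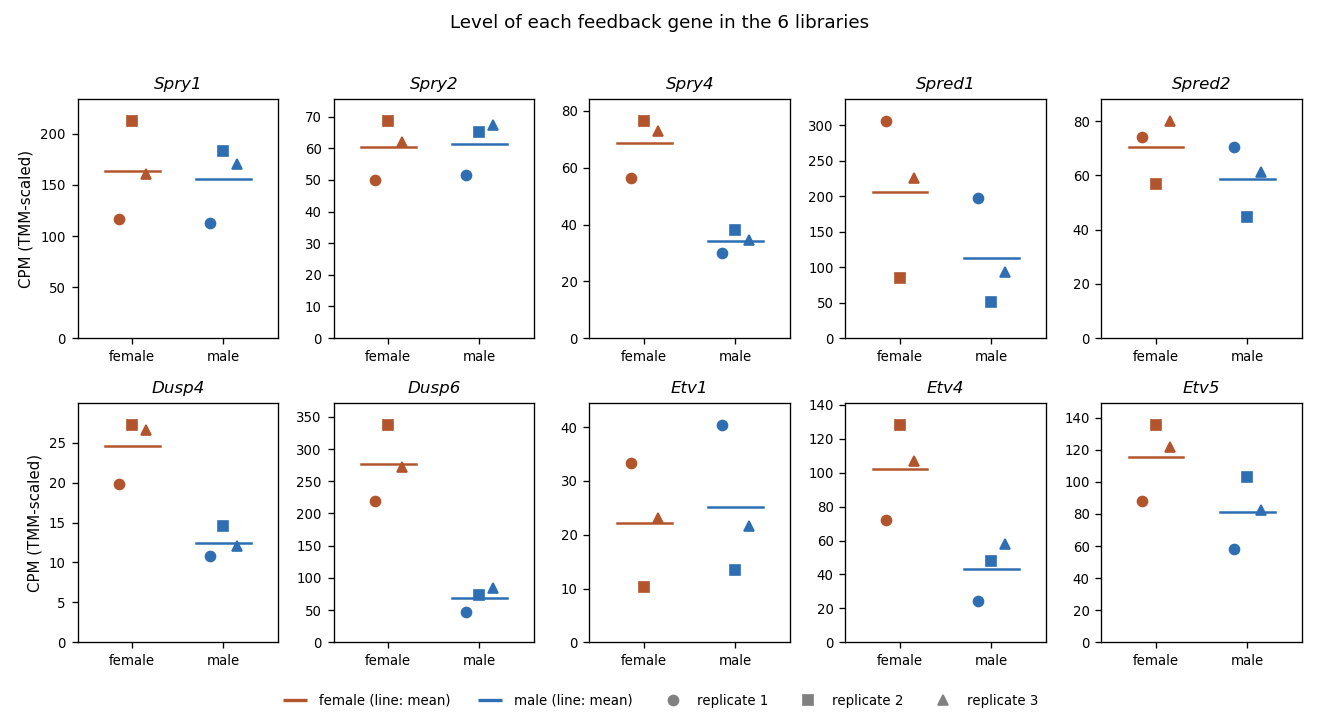
Reads of a gene in CPM, its count scaled to a common library size with TMM factors, on the vertical axes, from 0, for the 10 feedback genes in 3 female and 3 male libraries; each point is a library, its shape gives the replicate number and the line is the mean of 3. Male libraries lie below all female libraries for Spry4, Dusp4, Dusp6 and Etv4, and the sexes overlap for the other 6.

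The libraries held 22511872 to 24749859 counts in genes. They differed within each sex along the GC content of transcripts: over genes, the deviation of a library from the gene mean correlated with GC content at −0.628 and −0.623 in female and male replicate 1 and at 0.529 and 0.616 in female and male replicate 2, with −0.167 and 0.385 in replicate 3. Counts outside annotated genes were 17.5% and 18.2% of the uniquely placed counts in the replicate 1 libraries and 3.53% to 8.65% in the other 4. Of 12 genes of duct mesenchyme all were tested; their summed level was 5775 to 8361 CPM in female and 7188 to 8229 CPM in male libraries, and none passed the test. In 4 of them, Hoxa10, Hoxa11, Emx2 and Osr2, every male library was below every female library, and in 1, Pdgfra, every male library was above, against 7.27% and 6.47% of all genes tested.

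Dusp6 (ENSMUSG00000019960) encodes a cytoplasmic phosphatase that acts almost only on ERK. Its level was 220.0, 337.7 and 271.9 CPM in female replicates 1 to 3 and 47.6, 73.95 and 83.8 CPM in male replicates 1 to 3. The highest male library was below the lowest female library by more than the whole male range. The means were 276.5 ± 59.0 CPM in female and 68.4 ± 18.7 CPM in male (SD, n = 3 each). The log2 fold change, male over female, was −2.01 (SE 0.37, 95% interval −2.90 to −1.13; edgeR unadjusted p = 0.00104, adjusted p = 0.0635), which missed the threshold. Among 18 alternative settings the log2 fold change of Dusp6 stayed between −2.21 and −1.81, and it passed in 5, among them DESeq2 (adjusted p = 8.57e-05) and an offset for GC content and transcript length (adjusted p = 0.0053). Leaving out replicate 1 in both sexes also brought it past the threshold (adjusted p = 0.0236), whereas no single library left out did so (adjusted p from 0.104 to 0.365).

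Dusp4 (ENSMUSG00000031530), whose product is a nuclear phosphatase of ERK and related kinases, was less abundant, at 8.96 CPM per kilobase of transcript against 98.9 for Dusp6 in female. It stood at 19.8, 27.2 and 26.6 CPM in female and 10.9, 14.5 and 12.0 CPM in male libraries. The sexes did not overlap. Male over female, the log2 fold change was −0.98 (SE 0.32, 95% interval −1.74 to −0.21; edgeR adjusted p = 0.322). The count of Dusp6 per count of Dusp4 was 11.1, 12.4 and 10.2 in the female and 4.38, 5.09 and 6.98 in the male libraries. This ratio is taken within a library, so the scaling of libraries does not enter it. It was 2.08 times higher in female, with no overlap (exact two-sided permutation test, p = 0.1, the smallest that 3 against 3 libraries allow; adjusted p = 0.2 over 8 such within-family ratios, which were chosen after the levels were known). Taken from CPM adjusted by a GC content and length offset, the ratio overlapped between the sexes, at 7.41 to 15.9 in female and 2.99 to 8.29 in male.

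Dusp6 had the largest difference between the sexes of the 10 members, and Spry1 is a member whose sexes overlapped. The 250 bases before their RefSeq start sites are shown for that contrast, 5′ to 3′ on the strand of the gene (both on the plus strand, build GRCm38.p6). Dusp6 lies at chr10:99262981-99263230 and Spry1 at chr3:37639697-37639946 in that build. Capitals mark matches to AGGAAG or CCGGAA, 6-letter cores that ETS factors can bind, searched on both strands.
Dusp6: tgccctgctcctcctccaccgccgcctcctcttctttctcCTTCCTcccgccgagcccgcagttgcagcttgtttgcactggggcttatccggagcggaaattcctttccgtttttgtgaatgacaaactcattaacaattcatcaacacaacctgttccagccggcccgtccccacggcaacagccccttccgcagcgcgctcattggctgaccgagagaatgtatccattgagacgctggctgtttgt
Spry1: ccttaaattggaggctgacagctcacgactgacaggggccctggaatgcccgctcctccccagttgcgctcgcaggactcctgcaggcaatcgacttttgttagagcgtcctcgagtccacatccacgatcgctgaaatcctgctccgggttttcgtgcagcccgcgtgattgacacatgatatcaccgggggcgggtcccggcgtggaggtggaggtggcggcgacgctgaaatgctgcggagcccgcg

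The Dusp6 window held 1 match to AGGAAG, on the minus strand, beginning 210 bases before the start site, and none to CCGGAA. The Spry1 window held neither. AGGAAG was found in 29.5% and CCGGAA in 12% of 32851 RefSeq promoter windows of the same length, and the 2 motifs did not overlap here. Of the 7 members searched (Spry1, Spry2, Spred1, Spred2, Dusp6, Etv1 and Etv5), Spred2 held 2 matches to AGGAAG and 1 of the 2 Etv1 start sites held 1. CCGGAA was found before none of them. No window was searched for Spry4, Dusp4 and Etv4.

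Sprouty proteins bind signalling adaptors at the membrane and curb activation of RAS and RAF. Spry4 was the 1 of the 3 Sprouty genes whose sexes did not overlap. Spry4 (ENSMUSG00000024427) had 56.2, 76.6 and 73.05 CPM in female and 30.1, 38.2 and 34.7 CPM in male libraries. Every male library was lower than every female library. Its log2 fold change was −0.999 (SE 0.30, 95% interval −1.72 to −0.28; edgeR unadjusted p = 0.0137, adjusted p = 0.265). With the GC content and length offset it passed, at −0.96 (SE 0.17, adjusted p = 0.0223), where 2.84% of genes tested were called lower and 2.95% higher in male.

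Spry1 (ENSMUSG00000037211), the most abundant Sprouty gene per length of transcript, stood at 116.4, 213.1 and 160.3 CPM in female and 113.0, 183.0 and 170.3 CPM in male libraries. Spry2 (ENSMUSG00000022114) stood at 50.1, 68.7 and 62.0 CPM in female and 51.5, 65.2 and 67.4 CPM in male libraries. Replicate 1 was the lowest library of its sex for both genes, and the sexes overlapped almost fully. The log2 fold changes were −0.07 (95% interval −0.95 to 0.81) for Spry1 and 0.03 (95% interval −0.70 to 0.75) for Spry2, so differences of up to 1.94-fold and 1.63-fold higher in female lie inside these intervals.

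Proportions among the 3 Sprouty genes were compared within libraries. The count of Spry4 per count of Spry2 was 1.12, 1.11 and 1.18 in the female and 0.585, 0.585 and 0.515 in the male libraries. In raw counts it varied little within a sex and was 2.03 times higher in female. With the GC content and length offset it was 1.32, 1.04 and 1.08 in female and 0.707, 0.483 and 0.515 in male. Spry4 per Spry1 was 1.91 times higher in female in raw counts, at 0.359 to 0.483 against 0.204 to 0.267. Neither ratio overlapped between the sexes (exact two-sided permutation test, p = 0.1 each, adjusted p = 0.2 over the 8 ratios), nor did they after the offset. Spry2 per Spry1 overlapped, at 0.322 to 0.431 in female and 0.356 to 0.456 in male (p = 0.6 by the same exact test).

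**Figure D2:**
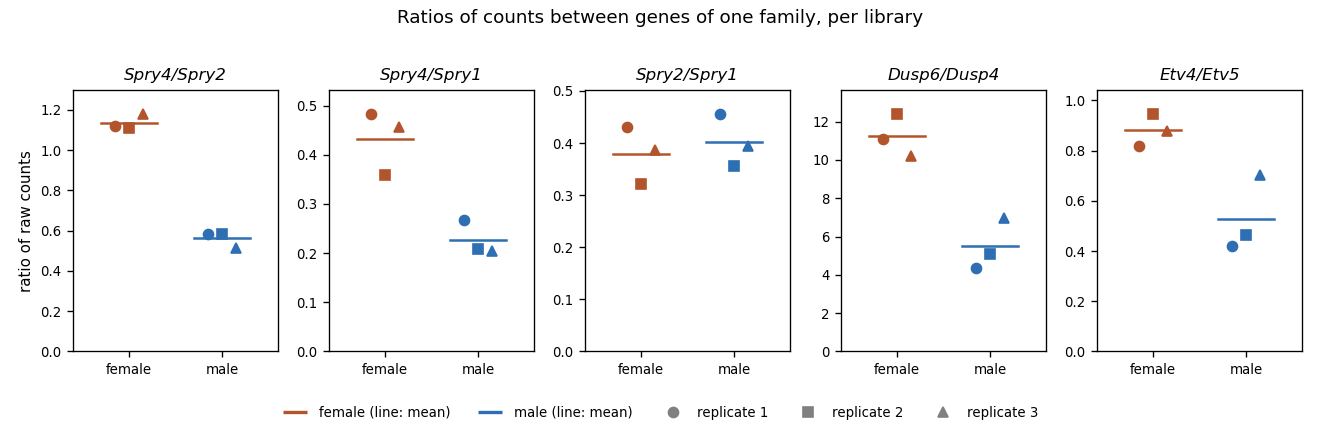
Ratios of raw counts between genes of a family within each library (vertical axes, from 0, no unit), for 3 female and 3 male libraries; shapes give the replicate number and lines the means. Spry4 to Spry2 lies between 1.11 and 1.18 in female and between 0.515 and 0.585 in male, while Spry2 to Spry1 overlaps between the sexes.

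Spred proteins carry neurofibromin to the membrane, where it switches RAS off. Spred1 (ENSMUSG00000027351) was among the most variable members, with 306.3, 84.3 and 225.2 CPM in female and 196.7, 51.0 and 92.8 CPM in male libraries. In both sexes replicate 1 was highest and replicate 2 lowest, and the sexes overlapped. Its longest transcript has 41.2% GC, which places it with Etv1 (39.8%) among the least GC-rich members. Spred1 had a log2 fold change of −0.85 (SE 0.66, 95% interval −2.42 to 0.71; edgeR adjusted p = 1).

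With the GC content and length offset the spread of Spred1 within each sex was smaller, at 150.4, 151.8 and 191.5 CPM in female and 100.8, 98.0 and 125.8 CPM in male. On that scale every male library was below every female library, as for 11.9% of genes tested, but the gene did not pass (log2 fold change −0.61, SE 0.19, adjusted p = 0.148). Spred2 (ENSMUSG00000045671) stood at 74.2, 56.7 and 80.2 CPM in female and 70.3, 44.6 and 61.4 CPM in male libraries, overlapping both before and after the offset. Its log2 fold change was −0.26 (95% interval −1.04 to 0.53). The offset did not narrow the spread of every member. The SD of Dusp4 rose with it from 4.13 to 6.56 CPM in female and from 1.88 to 4.28 CPM in male. That of Spry2 rose from 9.43 to 13.09 and from 8.60 to 15.11 CPM, and that of Spred2 from 12.2 to 15.85 and from 13.04 to 18.47 CPM (female first). For the remaining members it was smaller in both sexes.

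Of the PEA3 group of ETS factors, which activate transcription downstream of FGF receptors, Etv4 had the largest difference in means. Etv4 (ENSMUSG00000017724) stood at 72.1, 128.3 and 106.9 CPM in female and 24.3, 47.95 and 58.1 CPM in male libraries. No male library reached the lowest female library. This gave a log2 fold change of −1.24 (SE 0.44, 95% interval −2.28 to −0.19; edgeR unadjusted p = 0.0269, adjusted p = 0.39). With the GC content and length offset it was −1.52 (SE 0.25, adjusted p = 0.0185) and passed.

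Etv5 (ENSMUSG00000013089) stood at 88.2, 135.6 and 121.9 CPM in female and 58.2, 103.1 and 82.5 CPM in male libraries. Male replicate 2 alone exceeded the lowest female library, so the sexes overlapped by a single library. Etv5 had a log2 fold change of −0.50 (SE 0.36, 95% interval −1.36 to 0.35; edgeR adjusted p = 1). After the GC content and length offset the values were 104.9, 117.1 and 122.0 CPM in female and 69.98, 89.3 and 77.6 CPM in male, with no overlap, and the gene did not pass (adjusted p = 0.153).

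Etv1 (ENSMUSG00000004151), the least abundant member per length of transcript, showed no such order. It stood at 33.3, 10.4 and 23.04 CPM in female and 40.4, 13.4 and 21.6 CPM in male libraries, again with replicate 1 highest and replicate 2 lowest in each sex. Its log2 fold change was 0.18 (95% interval −1.21 to 1.56). After the offset Etv1 had means of 18.4 ± 3.19 CPM in female and 25.6 ± 6.22 CPM in male (SD, n = 3 each), which overlapped. The count of Etv4 per count of Etv5 was 0.817, 0.946 and 0.877 in female and 0.418, 0.465 and 0.704 in male libraries, with no overlap and 1.71 times higher in female (exact two-sided permutation test, p = 0.1, adjusted p = 0.2 over the 8 ratios). It did not overlap after the offset either. The rest of the 8 ratios, Etv4 per Etv1, Etv5 per Etv1 and Spred2 per Spred1, overlapped in raw counts (p = 0.3, 0.5 and 0.4 by the same exact test). After the offset Etv4 per Etv1 and Etv5 per Etv1 did not overlap, and Spred2 per Spred1 did.

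**Figure D3:**
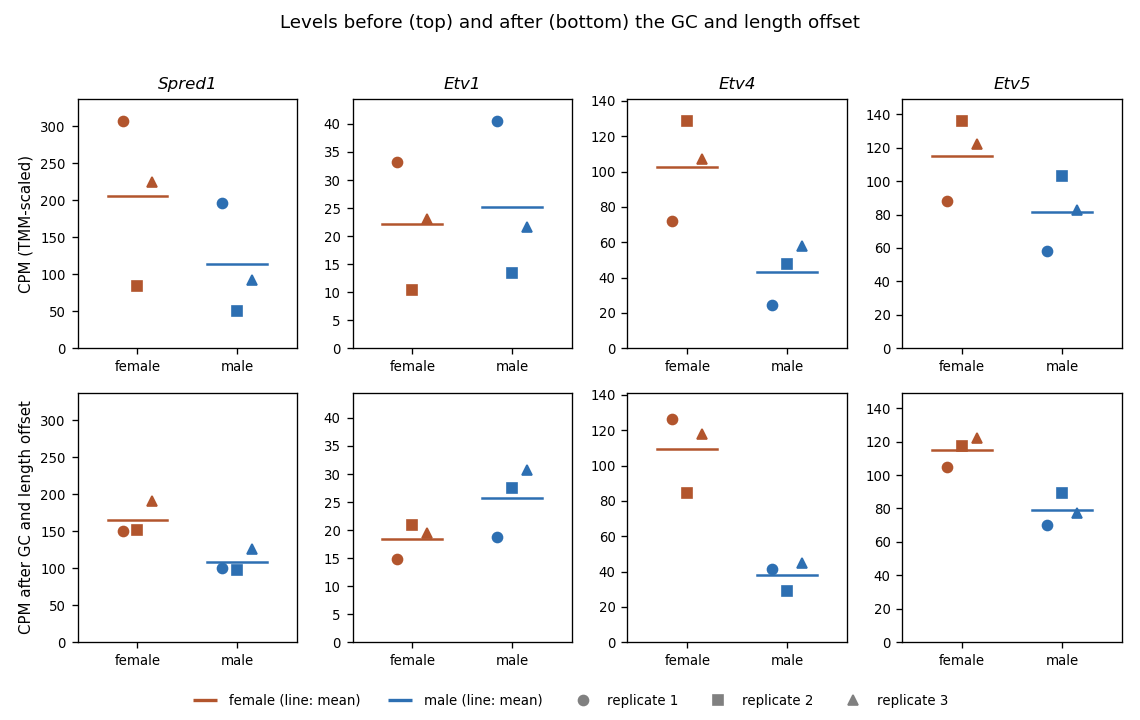
CPM of Spred1, Etv1, Etv4 and Etv5 (vertical axes, from 0) in 3 female and 3 male libraries, scaled by TMM alone in the upper row and with the GC content and length offset in the lower row; lines are means. After the offset the 3 male libraries lie below the female libraries for Spred1, Etv4 and Etv5, and Etv1 overlaps in both rows.

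Per kilobase of the longest reference transcript, Dusp6 was the highest member in female at 98.9 CPM per kb, ahead of Spry1 at 58.9 and Etv4 at 42.8. In male Spry1 led at 56.0 CPM per kb, followed by Spry2 at 29.4 and Dusp6 at 24.5. Spry4, Dusp4 and Etv1 were the lowest 3 in both sexes, between 3.38 and 14.4 CPM per kb. The order rests on 1 transcript model per gene.

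Of 79 other genes of the pathway, 78 were in the tables and 73 were tested. Of these, 1 passed as higher in male and none as lower (edgeR adjusted p under 0.05), against 0.841% and 0.387% of all genes tested. In 8 every male library was below every female library and in 4 above, against 7.27% and 6.47% of all genes. Their median log2 fold change equalled that of all genes tested, −0.01. The gene that rose was Fgfr3, an FGF receptor. It went from 2.83, 3.83 and 3.72 CPM in female to 44.2, 62.4 and 52.5 CPM in male libraries, or 15.3-fold. On the log2 scale this was 3.94 (SE 0.36; adjusted p = 0.0145 by edgeR). The call was lost when female replicate 1, 2 or 3 or male replicate 2 or 3 was left out (adjusted p = 0.0666, 0.057, 0.181, 0.0541 and 0.119), and when replicate 2 or 3 was left out of both sexes (0.123 and 1), while the log2 fold change of Fgfr3 stayed between 3.80 and 4.05 over 18 alternatives.

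Fgfr2, a second receptor, was higher in every male library, at 129.0 to 219.6 CPM against 53.5 to 66.8 CPM (log2 fold change 1.52, SE 0.34; adjusted p = 0.108 by edgeR). The threshold was passed in 4 of 18 alternatives, DESeq2 and the GC content and length offset among them. Fgfr1, the FGF receptor typical of mesenchyme, overlapped between the sexes, at 222.9 to 369.2 CPM in female and 186.2 to 285.3 CPM in male. Of 13 receptor kinases tested, 4 had every male library above every female library (Fgfr2, Fgfr3, Pdgfra and Erbb3) and none the reverse, where 6.47% of all genes tested lay above. Pdgfrb had the smallest p of those lower in male (log2 fold change −0.84, edgeR adjusted p = 0.764).

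FGF ligands were scarce in the sorted cells, and 5 of 9 were tested. Fgf18 stood at 5.22, 6.88 and 5.84 CPM in female and 2.52, 2.67 and 2.91 CPM in male libraries (log2 fold change −1.14; adjusted p = 0.228 by edgeR). Fgf1 also had every male library below every female library, at 3.29 to 6.00 CPM against 6.74 to 15.5 CPM. Neither passed. Fgf10, the ligand with the smallest p among those higher in male, had a mean of 0.948 ± 0.183 CPM in female and 1.79 ± 0.829 CPM in male (SD, n = 3 each), and overlapped.

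The core of the cascade, from the adaptors to ERK, had 19 of 19 genes tested and none past the threshold, with a median log2 fold change of −0.06. Gab1, a docking protein downstream of receptors, was the 1 core gene of 19 whose sexes did not overlap, against 13.7% of all genes tested. It stood at 116.5 to 150.6 CPM in female and 75.1 to 107.4 CPM in male (log2 fold change −0.66, edgeR adjusted p = 0.679). Araf, a RAF kinase gene, had the smallest p among core genes higher in male (0.40, adjusted p = 1).

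Other negative regulators lay on both sides of 0: 9 of 18 tested were lower in male by the mean and 9 higher, none past the threshold. Those with every male library below every female library numbered 4, against 7.27% of all genes tested: Lrig1, Il17rd, Lrig3 and Spred3. Lrig1, a transmembrane protein that promotes breakdown of receptor kinases, stood at 29.4, 65.2 and 54.6 CPM in female and 5.47, 10.1 and 7.33 CPM in male libraries. It had a log2 fold change of −2.70 (SE 0.45; adjusted p = 0.0516 by edgeR) and was past the threshold in 8 of 18 alternatives, DESeq2, limma-voom and the GC content and length offset among them. Il17rd, also called Sef, an inhibitor of FGF signalling at the membrane, stood at 67.3, 49.3 and 65.8 CPM in female and 29.9, 23.3 and 18.6 CPM in male libraries (log2 fold change −1.34, SE 0.34; adjusted p = 0.153 by edgeR, 0.0127 by DESeq2 and 0.00956 with the GC content and length offset). Dusp5, a nuclear ERK phosphatase, overlapped, at 32.2 to 103.9 CPM in female and 62.3 to 137.2 CPM in male. Erf, an ETS repressor that ERK removes from the nucleus, had the smallest p of those higher in male (log2 fold change 0.77, edgeR adjusted p = 1).

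Of 8 further ERK-induced genes tested, none passed and all overlapped between the sexes. By log2 fold change 6 were higher in male and 2 lower, with a median of 0.26. Ccnd1, the cyclin D1 gene, stood at 173.9 to 291.6 CPM in female and 284.7 to 409.1 CPM in male, with a log2 fold change of 0.49 (95% interval −0.34 to 1.33), and Phlda1 had −0.53 (95% interval −1.51 to 0.45). The immediate early genes Fos and Egr1, which cell dissociation can also induce, had log2 fold changes of 0.39 and 0.15. Of 10 other ETS factors tested none passed. Erg alone was below all female libraries in each male library, at 0.211 to 0.497 CPM against 1.23 to 3.09 CPM (log2 fold change −2.52, edgeR adjusted p = 0.107). Over all genes tested that share was 7.27%. Of the ETS factors higher in male, Ets2 had the smallest p (0.47, adjusted p = 1).

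**Figure D4:**
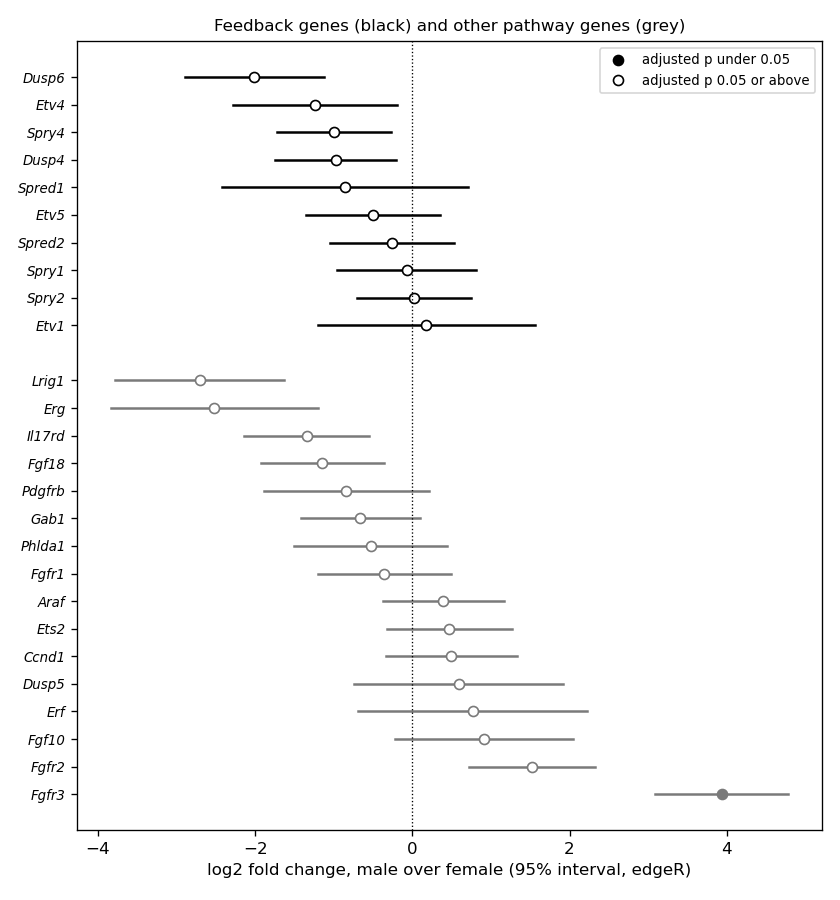
Log2 fold change, male over female (horizontal axis), with 95% intervals from the edgeR fit to 3 male and 3 female libraries, for the 10 feedback genes (black) and 16 other pathway genes (grey). Filled points passed an adjusted p of 0.05, which among these holds for Fgfr3; the intervals of Dusp6, Etv4, Spry4 and Dusp4 lie below 0.

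Markers of other cell types moved with the same comparison. In bulk samples, fewer cells of a type and less RNA per cell cannot be told apart. Sertoli cell genes had 6 of 8 tested members above all female libraries, against 6.47% of all genes. Of the 8, 3 (Amh, Sox9 and Cst9) were called higher in male by edgeR, against 0.841% of all genes. The Sertoli cell genes had a summed level of 21.0 to 28.6 CPM in female and 81.8 to 135.5 CPM in male. Endothelial genes summed to 60.9 to 97.7 CPM in female and 167.8 to 333.3 CPM in male. Most of this sum was Kdr, at 40.4 to 86.1 CPM in female and 133 to 319 CPM in male. Kdr was the 1 of 7 tested members not overlapping, against 13.7% of all genes tested. The defining markers Pecam1 and Cdh5 had means of 1.14 to 1.84 CPM in both sexes. Neuron and Schwann cell genes summed to 15.4 to 30.2 CPM in female and 67.6 to 76.6 CPM in male. Of 4 tested members 1, Stmn2, did not overlap, against the same 13.7% of all genes, and Stmn2 made up most of the male sum.

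The pregranulosa sum was 120.6 to 211.4 CPM in female and 280.9 to 554.3 CPM in male, most of it Wnt4. In contrast, 3 of its 7 members, Foxl2, Rspo1 and Irx3, were below all female libraries in male, against 7.27% of all genes tested. Kidney progenitor genes summed to 118.9 to 200.4 CPM in female and 56.8 to 99.9 CPM in male, nearly all of it Sall1. Duct epithelium genes overlapped in their sum, at 207.6 to 731.2 CPM and 165.9 to 508.6 CPM, although Epcam fell from 13.7 to 2.57 CPM (edgeR adjusted p = 0.0381) and Gata3 rose 7.03-fold (edgeR adjusted p = 0.0281). The sums of mesothelium, leukocyte, erythroid, fetal Leydig and germ cell genes overlapped between the sexes. In the mesothelium list 2 of 5 tested members, Upk1b and Lrrn4, had every male library below every female library, against 7.27% of all genes tested. The part of these cells in the levels of the feedback genes was not tested.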

How the data were processed

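RNA of YFP-sorted duct mesenchyme was sequenced as paired 76-base TruSeq v2 reads from at least 100 ng of RNA per library, per the labels. The authors deposited raw counts per Ensembl gene and 5 summary lines. The summary lines were left out of the comparisons of genes and used for the shares of counts outside annotated genes. TopHat, HTSeq, DESeq and mm9 are named, without versions or roles, per the submitters' processing notes. The kit does not mark strand, so overlapping antisense reads cannot be told apart. Symbols came from GENCODE M21 (32919 of 37991 identifiers), and length and GC content from its longest transcripts (GRCm38, so no mm9 coordinates are given).

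In R 4.3.3, genes were kept by filterByExpr, given TMM factors and compared by edgeR 4.0.16 (robust quasi-likelihood test, sex only, two-sided, Benjamini-Hochberg adjustment over 15227 genes, threshold 0.05). Standard errors are the absolute log2 fold change over the root of F. Alternatives were RLE and upper quartile scaling, other filters, DESeq2 1.42.0, limma-voom (limma 3.58.1), a GC content and length offset (splines with 5 degrees of freedom, 96.4% of tested genes), a replicate block, and leaving out libraries.

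The members, lists and tests were chosen with earlier results of these data known. All 10 members are named. Of each pathway list, called genes and the gene with the smallest p in each direction are named, with Fgfr1, Fgfr2, Phlda1, Ccnd1, Il17rd and Dusp5; Lrig3, Spred3, Fgf1, Pdgfra, Erbb3, Fos and Egr1 were added after their values were seen.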

Additional observations from a re-analysis of the deposited data

Results flagged for a closer look

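Counts outside annotated genes entered no comparison. Their share of the uniquely placed counts was 17.5% in female and 18.2% in male replicate 1, 3.53% and 5.45% in replicate 2, and 8.65% and 5.50% in replicate 3 (female first). No control library sets a level for them.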

How the results depend on the processing

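The 4 genes Spry4, Dusp4, Dusp6 and Etv4 were lower in male under all 18 alternatives and did not overlap between the sexes under any of the scalings or left-out libraries tried for that count, which gave 4 to 7 genes (7 without replicate 2 in both sexes). With fewer libraries more genes do not overlap: of all genes tested, 7.27% had every male library below every female library in the main setting, 6.85% and 7.2% with the other scalings, 11.8% with the GC content and length offset (11.9% with the prior count used for CPM), 7.99% to 14.5% with 1 library left out, and 18.4%, 14.9% and 9.63% without replicate 1, 2 or 3 in both sexes. Members called lower in male numbered 0 in the main setting, 1 with DESeq2 and 3 with the GC content and length offset. They numbered 6 with a replicate block, 6 with both, and 0 to 1 with libraries left out. With both, 1 member, Etv1, was called higher. Of all genes tested, 0.387% were called lower in the main setting, 2.15% with DESeq2 and 2.84% with the offset. The share lower was 14.2% with the replicate block, 15.2% with both and at most 0.863% with libraries left out. With both, 14.1% of all genes tested were called higher. Same-numbered female and male libraries resembled each other for numbers 1 and 2 and not for number 3. Their deviations correlated over genes at 0.927 and 0.852 for numbers 1 and 2, and at −0.069 for number 3. Female replicate 3 correlated best with male replicate 1 (0.222). The labels do not say that a number marks a shared batch. Calls over all genes, 128 higher and 59 lower, became 444 and 327 with DESeq2, 449 and 433 with the offset, 1997 and 2167 with the replicate block and 2145 and 2311 with both, so the share of higher calls moved from 68.4% to 50.9% with the offset. Leaving out both libraries of a number gave 0 to 225 higher and 0 to 129 lower; leaving out 1 library gave 141 higher and 32 lower without male replicate 1, and otherwise 11 and 3, 3 and 2, and 0 and 0 without female replicates 1 to 3 and 6 and 1, and 0 and 0 without male replicates 2 and 3. With the replicate block 13.1% of all genes tested were called higher and 14.2% lower, and with both 14.1% and 15.2%. Pathway genes called, 1 higher and 0 lower of 73 tested in the main setting, became 2 and 4 with DESeq2. They became 3 and 2 with the offset, 13 and 16 with the replicate block and 18 and 15 with both. Lower calls were 1 with no filter, 1 with a filter of CPM above 1 in 3 libraries and 1 with limma-voom, and with libraries left out higher calls were 0 to 1 and lower calls 0 to 1. The log2 fold changes of Spry1, Spry2 and Etv1 changed sign when single libraries or replicate numbers were left out: Spry1 to 0.17 and 0.11 without female replicate 2 or male replicate 1 and 0.025 without replicate 2 (range −0.265 to 0.174), Spry2 to −0.092, −0.02 and −0.03 without female replicate 1, male replicate 2 or male replicate 3 and −0.039 without replicate 3 (range −0.092 to 0.137), and Etv1 to −0.16 and −0.35 without female replicate 2 or male replicate 1 (range −0.347 to 0.59). The causes were not tested. Leaving out replicates of both sexes, and the count of non-overlapping members, were added after the data were seen.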

Other observations

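Over the 6 libraries, the genes whose log2 CPM followed Dusp6 most closely were Nrgn, Apba2 and Abcg1 (Pearson r = 0.999, 0.999 and 0.997), and those closest to Spry4 were Lrig1, Gramd4 and Pcnx2 (r = 0.999, 0.999 and 0.997). These values describe 6 libraries that share depth and the difference between the sexes, and 212 and 220 genes had r above 0.95 with Dusp6 and Spry4. Nrgn stood at 40.1, 86.9 and 59.3 CPM in the female and 4.59, 8.90 and 10.3 CPM in the male libraries and passed the test as lower in male (log2 fold change −2.97, edgeR adjusted p = 0.0478), and Gramd4 stood at 88.8, 116.3 and 115.9 CPM against 51.6, 62.2 and 57.4 CPM (adjusted p = 0.329).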
